A study of Mus musculus with 13 samples.

Results

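The genes described here are 8 genes of cholesterol metabolism, listed by symbol, and their 5′ ends, gene bodies and surroundings were read against 8 lists of ChIP-seq regions from Hepa 1-6, a murine hepatoma line. Of the 8, 7 were found in the annotation of the mouse assembly mm9, among 22367 protein-coding genes on the nuclear chromosomes: Srebf2, Insig1, Idi1, Fdps, Sqle, Lss and Cyp51. Hmgcs1 was not found by its symbol and is treated separately. A promoter was the 5′ end of a gene with 250 bp on either side, a gene body was the rest of the gene, and the surroundings were the 10 kb to each side of it. Region positions are given as distances from the 5′ end, negative upstream and positive into the gene.

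In ChIP-seq, DNA recovered with an antibody is sequenced, and places where its reads pile up are called as regions. KAP1 is a corepressor brought to DNA by zinc finger proteins, and the study also cites reports of it at promoters of active genes without them. KAP1 and the histone marks H3K27ac, H3K4me1 and H3K9me3 were profiled in Hepa 1-6 cells under standard culture. The RNA polymerases II and III (PolII and PolIII) were profiled 5 days after transduction with a vector encoding a hairpin against KAP1 (Kap1 KD) or with the control vector (control), which carries a control hairpin per the labels and is empty per the methods of the study. The labels speak both of a transfected plasmid and of transduction, and the methods of a lentiviral vector. Each of the 8 profiles rests on 1 library of 1 cell line, so no value below has a replicate error and no difference was tested. The lists hold positions and no read counts, so the depth is unknown. A gene missing from a list was not called at that depth, and a region in a list is a call and not a level. KAP1 itself was not profiled under Kap1 KD in the files used here, so the loss of KAP1 from a given promoter cannot be read from them.

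Cells make cholesterol from acetyl-CoA through mevalonate, farnesyl diphosphate, squalene and lanosterol. When membrane sterol is low, the transcription factor SREBP2, the product of Srebf2, is released from the endoplasmic reticulum, cut in the Golgi and moved to the nucleus, where it acts on genes of both synthesis and uptake at sterol regulatory elements (SRE), often beside binding sites of NF-Y and Sp1. Insig1 encodes a protein that holds the SREBP2 complex in the endoplasmic reticulum when sterol is high. The remaining members encode enzymes: HMG-CoA synthase (Hmgcs1), isopentenyl diphosphate isomerase (Idi1), farnesyl diphosphate synthase (Fdps), squalene epoxidase (Sqle), lanosterol synthase (Lss) and lanosterol demethylase (Cyp51). None of the 8 encodes an uptake receptor, so uptake enters through Srebf2 and Insig1 alone.

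The promoter sequences of 5 members are shown because they cover both regulators, the member that the mm9 annotation lacks, and the promoters with the most different lists. They are the 250 bases upstream of the 5′ end, read 5′ to 3′ on the strand of the gene. Srebf2 is mm9 chr15:81977446-81977695 (+), Insig1 is chr5:28397702-28397951 (+), Fdps is chr3:88905882-88906131 (-) and Sqle is chr15:59146382-59146631 (+). Hmgcs1 comes from RefSeq in the build GRCm38.p6, chr13:119690101-119690350 (+). Capitals mark CCAAT, the NF-Y motif, on either strand (ATTGG on the strand shown) and the SRE core TCACNCCAC or its first 8 letters.
Srebf2: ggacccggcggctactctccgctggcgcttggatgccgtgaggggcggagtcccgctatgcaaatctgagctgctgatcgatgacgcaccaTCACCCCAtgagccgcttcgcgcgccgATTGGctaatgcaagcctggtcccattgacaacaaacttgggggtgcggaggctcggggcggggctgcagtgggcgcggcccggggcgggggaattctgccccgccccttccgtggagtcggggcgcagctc
Insig1: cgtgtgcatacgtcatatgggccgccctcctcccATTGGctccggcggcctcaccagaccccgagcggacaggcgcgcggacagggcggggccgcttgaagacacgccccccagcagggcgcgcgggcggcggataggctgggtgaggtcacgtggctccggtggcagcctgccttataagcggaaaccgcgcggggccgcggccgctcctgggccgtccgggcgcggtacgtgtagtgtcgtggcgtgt
Hmgcs1: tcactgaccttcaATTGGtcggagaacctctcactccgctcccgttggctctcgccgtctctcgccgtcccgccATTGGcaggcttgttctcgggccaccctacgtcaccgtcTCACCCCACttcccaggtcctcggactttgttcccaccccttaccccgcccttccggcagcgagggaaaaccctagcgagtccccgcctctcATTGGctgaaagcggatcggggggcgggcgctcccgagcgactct
Fdps: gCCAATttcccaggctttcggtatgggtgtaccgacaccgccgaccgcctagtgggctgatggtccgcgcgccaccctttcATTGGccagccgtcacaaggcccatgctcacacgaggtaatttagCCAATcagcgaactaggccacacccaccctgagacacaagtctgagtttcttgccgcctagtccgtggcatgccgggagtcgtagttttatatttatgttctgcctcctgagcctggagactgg
Sqle: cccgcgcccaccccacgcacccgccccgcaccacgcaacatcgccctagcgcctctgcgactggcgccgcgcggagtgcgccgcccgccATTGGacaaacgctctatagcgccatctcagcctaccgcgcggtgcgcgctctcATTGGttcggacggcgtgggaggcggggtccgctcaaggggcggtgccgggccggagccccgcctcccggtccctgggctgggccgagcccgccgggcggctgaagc

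CCAAT was present in the promoters of 7 of 7 members in a window of 300 bp, 250 bp before and 50 bp after the 5′ end, against 37.9% of 22362 protein-coding promoters. The only match in Cyp51, at +20 to +24, lay downstream of the 5′ end. Fdps held 3 matches, Sqle and Idi1 held 2 each, and 12.0% of all promoters held 2 or more. Hmgcs1 held 4. The GC box GGGCGG, the motif of Sp1, was present in 6 of 7 members and in 43.4% of promoters, with 5 matches in Srebf2, 4 in Sqle and in Lss, 3 in Insig1, 1 in Idi1 and in Cyp51, and 0 in Fdps. Both motifs were searched on both strands, and the only overlap between matches was 1 pair of GC boxes in Lss.

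The SRE core was found in 0 of 7 members and in 1.22% of promoters. Hmgcs1 held 1 match, at -137 to -129. With the last letter dropped (TCACNCCA, a search added after the sequences had been seen), Srebf2 also matched, at -159 to -152, and 3.93% of promoters did. An absent match says that these letters are not in the window and nothing about the factor.

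The members' promoters also differed in base composition. GC content in the window ran from 52.3% in Idi1 and 56.7% in Fdps to 72.7% in Lss and 75.3% in Sqle, against a median of 55.0% over all promoters. Cyp51 held 62.0%, Srebf2 69.0% and Insig1 71.7%, and Hmgcs1 held 65.7%. The observed over expected CpG ratio was 1.06 in Sqle, 0.988 in Insig1, 0.857 in Srebf2, 0.793 in Lss, 0.763 in Cyp51, 0.709 in Fdps and 0.445 in Idi1. The median over all promoters was 0.534, with quartiles of 0.217 and 0.811. Idi1 was the 1 member under that median.

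Hmgcs1 cannot be read from any of the lists. The 300 bases of its RefSeq promoter had 0 exact full-length matches on the placed chromosomes of mm9 and 2 on its unplaced contigs, 1 on each of 2 contigs. In none of the 8 lists did a region lie on an unplaced contig. Hmgcs1 is therefore left out of every count that follows, and its lack of regions is not a measurement.

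The 7 members fell into separate arrangements of listed regions. H3K27ac, a mark of active promoters and enhancers, lay over the promoters of 5 members (Srebf2, Idi1, Fdps, Sqle and Cyp51), against 20.0% of all protein-coding genes. In Idi1, Fdps and Cyp51 it shared 3, 22 and 30 bp with the window, and at an overlap of at least 100 bp it lay over 2 of 7, Sqle and Srebf2, against 12.8% of all genes. KAP1 lay over 2, Srebf2 and Sqle, against 15.7%, and above the median score of its list over Sqle alone, against 7.98%. The 2 lie on chromosome 15, and the other 5 do not. PolII was called over the Sqle promoter in the control, 1 of 7 against 13.1%, and over Sqle and Srebf2 under Kap1 KD, 2 of 7 against 23.3%. H3K4me1, a mark of enhancers and promoter flanks, lay over the Fdps promoter alone, against 11.9%, by 28 bp. At an overlap of at least 100 bp it lay over 0 of 7, against 6.45%, and with 1 kb to each side of the 5′ end over 5 of 7, against 37.1%. H3K9me3, a mark of silenced chromatin, lay over none, against 5.24%. PolIII, which transcribes tRNA and other small RNA genes, lay over none in either condition, against 0.344% in the control and 0.134% under Kap1 KD.

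**Figure D1:**
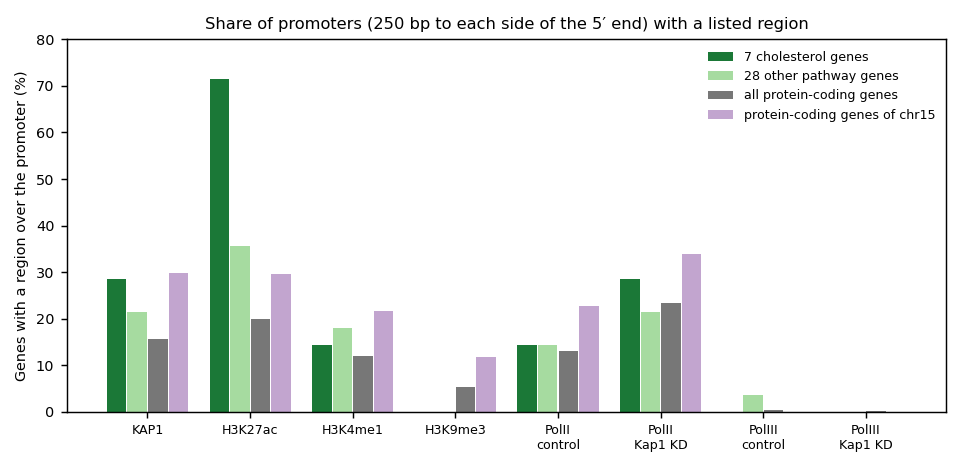
Bars give the percentage of genes with a listed region over the promoter (y axis) in each of the 8 lists (x axis), for the 7 members, 28 other pathway genes, all 22367 protein-coding genes and the 797 on chromosome 15. H3K27ac stands at 71.4% of the members (5 of 7) and 20.0% of all genes at an overlap of 1 bp, against 2 of 7 and 12.8% at 100 bp, and 1 member makes up 14.3%.

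KAP1 was called at 2 of 2 members on chromosome 15 and at 0 of 5 elsewhere. Of 797 protein-coding genes on chromosome 15, 29.7% had KAP1 at the promoter, against 15.2% on the other chromosomes. For PolII the shares were 22.7% against 12.8% in the control and 33.9% against 23.0% under Kap1 KD, and for H3K27ac they were 29.5% against 19.6%. H3K4me1 (21.6% against 11.5%) and H3K9me3 (11.7% against 5.00%) were also more frequent there. PolIII was at 0 of the 797 in either condition, against 0.357% in the control and 0.139% under Kap1 KD. Srebf2 and Sqle share chromosome 15, and its part in their calls was not tested.

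Over gene bodies H3K4me1 was the most frequent, in 5 members (Srebf2, Idi1, Fdps, Sqle and Lss), against 50.5% of all genes. H3K27ac was in 4, the same without Lss, against 41.0%, KAP1 in Srebf2 and Sqle, against 23.7%, and H3K9me3 in Srebf2 alone, against 23.2%. PolII was in Sqle in the control, against 14.9%, and in Sqle and Srebf2 under Kap1 KD, against 27.2%. PolIII was in none, against 3.51% in the control and 0.572% under Kap1 KD.

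In the 10 kb outside the genes, H3K9me3 lay near 4 members (Idi1, Fdps, Sqle and Lss), against 24.4% of genes, and near 3 of the 28 other pathway genes (10.7%). Within 5 kb it lay near 2 members, Fdps and Sqle, against 15.0%. H3K27ac lay outside the 5 members that had it at the promoter, against 45.7%. In Idi1, Fdps and Cyp51 this was the same region that was counted at the promoter. H3K4me1 lay there for Srebf2, Idi1, Fdps and Sqle, against 53.3%, and KAP1 for Srebf2 and Sqle, against 28.3%, in both genes as the upstream part of the promoter peak. PolII reached outside Sqle in the control, against 20.0%, and outside Sqle and Srebf2 under Kap1 KD, against 33.4%, in Srebf2 as part of the promoter peak. PolIII was near none, against 3.39% and 0.952%. Counted over gene and surroundings together, Sqle held 18 regions of 6 lists, Srebf2 13 of 5, Fdps 9 of 3, Idi1 6 of 3, Lss 2 of 2, Cyp51 1 and Insig1 0.

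**Figure D2:**
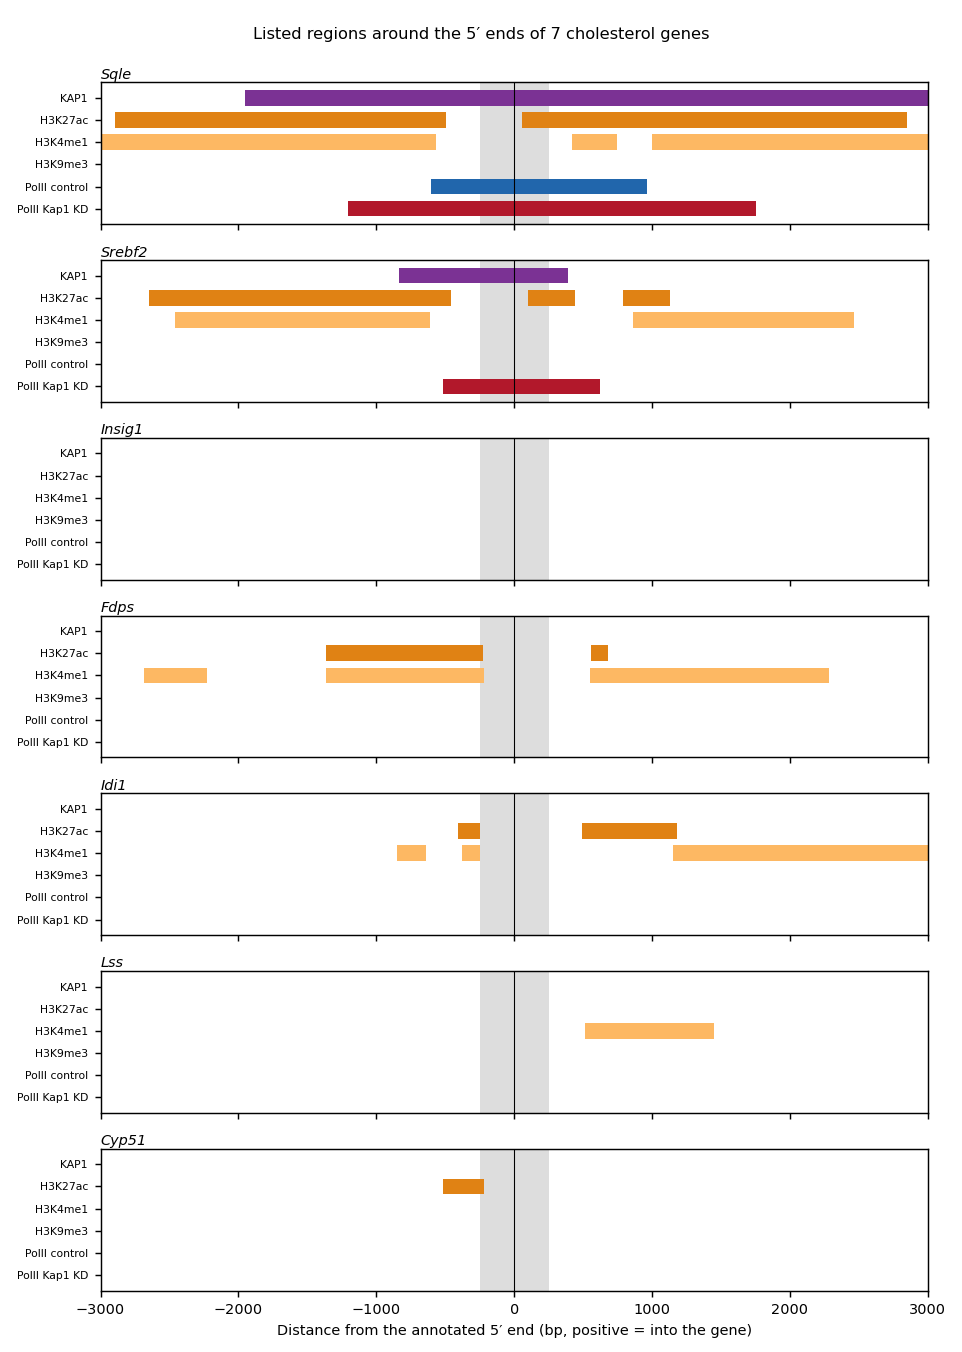
Each panel is 1 gene, the x axis is the distance in bp from its annotated 5′ end over 3 kb to each side, bars are listed regions in 6 rows (the lists named on the y axis), and grey marks the promoter window. PolIII, with no region near any member, is left out. Sqle has KAP1 and PolII of both conditions over the 5′ end, Srebf2 has KAP1 and PolII of Kap1 KD alone, Fdps and Idi1 have histone marks to both sides of it, and Insig1 has no region.

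Srebf2, on mm9 chr15:81977696-82035806 (+), spans 58.1 kb. Its KAP1 peak ran from -835 to +386 with a score of 97.4, rank 6516 of 12470 KAP1 peaks, so it lay just below the middle of that list. H3K27ac lay at -2648 to -461, at +98 to +443 and at +787 to +1129, leaving 558 bp around the 5′ end uncovered, within the KAP1 peak. H3K4me1 lay within the upstream H3K27ac region, at -2457 to -609, and downstream at +861 to +2460, starting inside the last H3K27ac region, and 5 more H3K4me1 regions lay inside the gene between +12853 and +18553. The single H3K9me3 region, of 408 bp, lay at +34782 to +35189 within the gene.

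PolII was called at the Srebf2 promoter under Kap1 KD alone, from -519 to +621. That call carried a score of 57, rank 5319 of 12862. The control list holds 5015 peaks, and with the Kap1 KD list cut to its 5015 highest-scoring peaks, the lowest score kept was 60, so the Srebf2 peak was no longer listed. In the control list the flanking peaks, numbers 5541 and 5542, were consecutive and stood 851 kb apart, so no number is missing there. The reason for the missing numbers in these lists is not given in the sources used here, so a gap may not be a removed call, and consecutive numbers show only that no number is missing. Over all genes, 10.9% had PolII at the promoter under Kap1 KD alone, 12.4% in both conditions, 0.733% in the control alone and 75.9% in neither. Of the members, Srebf2, Sqle, no gene and 5 genes took these places. On chromosome 15 the Kap1 KD alone share was 12.8%. The difference at Srebf2 thus rests on a call outside the 5015 highest-scoring peaks of the longer list, and 1 library per condition gives no error for it.

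Mir33, a microRNA of lipid metabolism hosted by an intron of Srebf2, starts at +50856, and none of the lists had a region at its promoter window. Ccdc134, the gene upstream, which starts more than 10 kb away, ends 5065 bp before Srebf2 and had KAP1 at its own promoter. The PolII call of Srebf2 covered 1.07% of the gene.

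**Figure D3:**
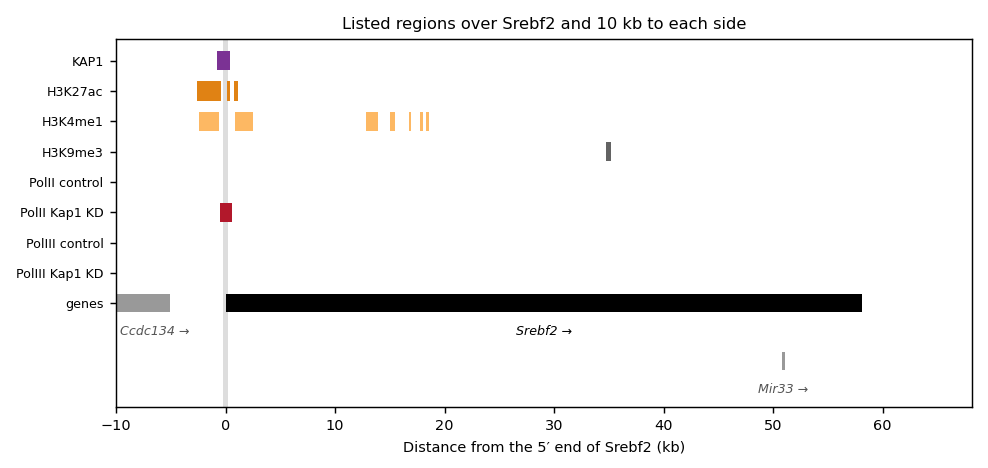
Listed regions over Srebf2 and 10 kb to each side, with the distance from its 5′ end in kb on the x axis and 1 row for each of the 8 lists. Black marks Srebf2, grey bars the neighbouring genes, arrows the direction of transcription and the grey stripe the promoter window. KAP1 and the Kap1 KD PolII peak sit at the 5′ end, and the control row is empty.

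Insig1, on mm9 chr5:28397952-28405201 (+), had no region of any list in its 7.25 kb or in the 10 kb to each side. Among all protein-coding genes 19.1% were in that state. The nearest H3K9me3 region lay 82.3 kb from its 5′ end, the nearest KAP1 peak 94.5 kb, H3K27ac and the Kap1 KD PolII peak 245 kb each, H3K4me1 247 kb and the control PolII peak 2953 kb. Between the control PolII peaks that flank Insig1, 8410 kb apart, 8 numbers are missing, and what they stood for is not known. The Kap1 KD peaks around it, 525 kb apart, are numbered consecutively. The long noncoding RNA gene Gm16719 begins across a gap of 306 bp, in the opposite direction, inside the same empty stretch.

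Idi1, on mm9 chr13:8884852-8891641 (+), had H3K27ac on both sides of its 5′ end, at -405 to -248 and at +494 to +1180. The upstream region shared 3 bp with the promoter window, so its promoter call rests on those bases. H3K4me1 lay at -848 to -638, at -376 to -252 and at +1151 to +3002, so that it began downstream where H3K27ac ended. One H3K9me3 region of 112 bp lay beyond the gene, at +15349 to +15460. The nearest KAP1 peak was 949 kb away, and PolII was nearest at 119 kb in the control, where 2 numbers are missing around Idi1, and at 110 kb under Kap1 KD, where none is.

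Fdps, on mm9 chr3:88897514-88905881 (-), was the 1 member with H3K4me1 at the promoter. Its H3K4me1 region at -1364 to -223 lay almost base for base on the H3K27ac region at -1367 to -229, and they shared 28 and 22 bp with the promoter window. Downstream, H3K27ac covered 123 bp at +559 to +681 and H3K4me1 1732 bp at +548 to +2279. Of the other 4 H3K4me1 regions, 1 lay upstream and 3 beyond the 3′ end, between +10307 and +12798. These 3 lie within Rusc1, whose 5′ end is 8596 bp from that of Fdps and whose promoter window held no region. A U6 small nuclear RNA gene within Fdps also had none, and PolIII was nearest at 202 kb in the control and 281 kb under Kap1 KD. An H3K9me3 region of 312 bp lay at -4278 to -3967. No PolII number is missing around Fdps in either condition.

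Sqle, on mm9 chr15:59146632-59162747 (+), carried the most regions. Its KAP1 peak of 5106 bp ran from -1950 to +3155 and ranked 58 of 12470 by width, within the widest 0.465%, and 3157 by its score of 188.15. Within and around it H3K27ac lay at -2894 to -495 and +55 to +2846, leaving 549 bp uncovered at the 5′ end. H3K4me1 took 7 regions, the first at -4239 to -570, the widest, of 7076 bp, at +997 to +8072 and the last at +16273 to +17782, beyond the gene, and covered 57.6% of the gene. H3K9me3 lay upstream, at -5087 to -4539 and -4137 to -3922. Of these, the nearer lies within the upstream H3K4me1 region.

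PolII was called at the Sqle promoter in both conditions. The control peak ran from -606 to +959, 1566 bp with a score of 61, rank 1420 of 5015. The Kap1 KD peak ran from -1204 to +1756, 2961 bp with a score of 180, rank 1228 of 12862. The Kap1 KD peak was thus 1.89 times as wide. Over the 2777 genes with PolII at the promoter in both lists the median ratio was 1.34, with quartiles of 1.03 and 1.94, so Sqle lay within the upper part of the middle range. A second pair of peaks lay in the gene, at +4392 to +5749 in the control and +3934 to +5265 under Kap1 KD.

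The lists parted over the 3′ part of Sqle. The control list held a peak of 13069 bp at +9784 to +22852, with a score of 425, rank 125 of 5015, and the 29th in width. It crossed the 3′ end of Sqle and ran into E430025E21Rik, a convergent gene whose end lies 805 bp away, so 6332 bp of it lay in Sqle and 6737 bp beyond. The promoter of E430025E21Rik itself had KAP1, H3K27ac and a separate control PolII peak, number 5320, and no Kap1 KD peak, with 2 numbers missing there between 12380 and 12383. Under Kap1 KD no peak was listed there, and the next one stood at +24452 to +25646. In that list the number 12372 is missing between peaks 12371 and 12373, which end and begin at +5265 and +24452, the stretch that holds the wide control peak. What that number stood for is not known, and with 1 library per condition the difference over the 3′ part of Sqle cannot be read as a loss of PolII. In the control 1 number, between 5315 and 5317, is missing upstream of the gene. PolII covered 53.7% of Sqle in the control and 19.2% under Kap1 KD, with the same limit. Among genes with PolII at the promoter the median cover was 3.33% (2941 genes) and 3.81% (5222 genes), and 11.4% and 22.0% of them were covered at least as much as Sqle.

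**Figure D4:**
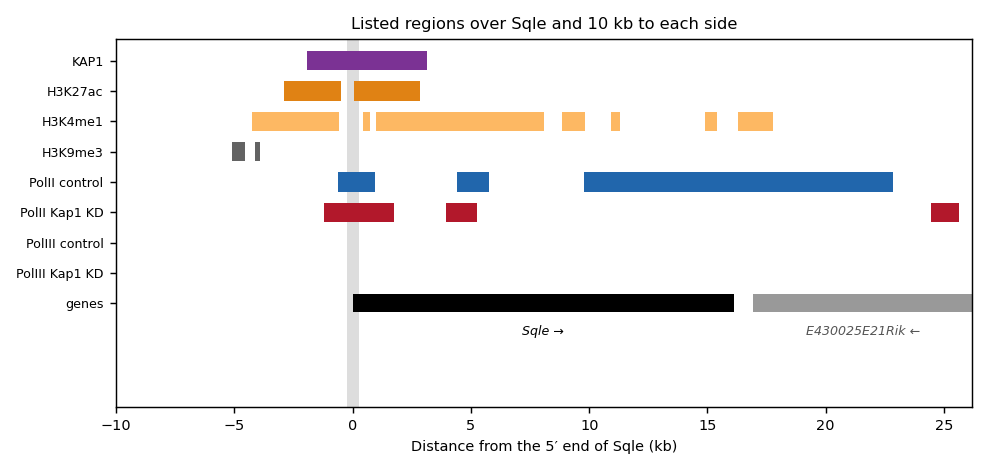
Listed regions over Sqle and 10 kb to each side, with the distance from its 5′ end in kb on the x axis and 1 row for each of the 8 lists. Black marks Sqle, grey the convergent gene E430025E21Rik, arrows the direction of transcription and the grey stripe the promoter window. The control PolII peak of 13069 bp faces an empty stretch in the Kap1 KD row, where the number 12372 is missing.

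Lss, on mm9 chr10:75994333-76019883 (+), had no region over its promoter. An H3K4me1 region of 938 bp lay at +512 to +1449, an H3K9me3 region of 116 bp at -6532 to -6417, and the nearest KAP1 peak 12.3 kb from the 5′ end. H3K27ac was nearest at 61.9 kb. No PolII number is missing around Lss in either list. The noncoding RNA gene 4930483K19Rik overlaps its 3′ part from the other strand, and 1700027D21Rik starts 5133 bp beyond it. Neither had a region at its promoter. Gm15343, which overlaps 1700027D21Rik from the opposite strand, had none at its promoter either.

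Cyp51, on mm9 chr5:4081145-4104746 (-), held a single region, H3K27ac at -516 to -221, of which 30 bp lay in the promoter window. No H3K27ac region lay downstream of the 5′ end nearer than 50898 bp, and H3K4me1 was nearest at 16.5 kb. KAP1 was nearest at 87.0 kb. Akap9 ends 935 bp from Cyp51 and had no region of any list at its promoter. In both PolII lists 1 number is missing in the 298 kb between the peaks that flank Cyp51.

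Over the 7 members, the absence of a control PolII peak has no missing number around it for Srebf2, Fdps and Lss, and that of a Kap1 KD peak for Insig1, Idi1, Fdps and Lss. Of the numbers up to the last one, 31.3% are missing from the control list and 22.6% from the Kap1 KD list. For PolIII the shares are 30.4% and 55.0%, and Fdps and Lss were the members with no missing number around them in either PolIII list.

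In 4 members (Srebf2, Idi1, Fdps and Sqle) H3K27ac lay within 1 kb on both sides of the 5′ end and not over it. The uncovered stretch was 549 bp in Sqle, 558 bp in Srebf2, 741 bp in Idi1 and 787 bp in Fdps. This arrangement, described after the values had been seen, held for 16.4% of all genes and for 46.5% of the 7879 genes with H3K27ac within 1 kb of the 5′ end, of which 11.3% had the mark over it. Of the 5 members with H3K27ac within 1 kb, none had it over the 5′ end. In Sqle and Srebf2 the uncovered stretch lay under a KAP1 peak and a Kap1 KD PolII peak, in Sqle also under a control PolII peak, and in Idi1 and Fdps under none.

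The presence or absence of the 8 lists over each promoter was compared with that of other pathway genes. The pattern of Sqle, KAP1 with H3K27ac and PolII in both conditions, was that of 719 protein-coding genes (3.21%) and of 0 of 28 other pathway genes. That of Srebf2, KAP1 with H3K27ac and PolII under Kap1 KD, was that of 314 genes (1.40%), among them Lrp1, a lipoprotein receptor. The PolII call of Srebf2 is lost with PolII lists of equal length, so its pattern rests on the longer list. Fdps, with H3K27ac and H3K4me1, had the pattern of 508 genes (2.27%) and of Pmvk, phosphomevalonate kinase. Idi1 and Cyp51, with H3K27ac alone, shared theirs with 733 genes (3.28%), among them Sc4mol and Sc5d, enzymes of the late sterol steps, Scap, the escort of SREBP2, and Mbtps2, a protease that cuts it. At an overlap of at least 100 bp Idi1, Fdps and Cyp51 have no region over the promoter, so their patterns rest on the overlap of 1 bp. Insig1 and Lss, with none, were like 13076 genes (58.5%) and 12 of the pathway, among them Acat2, Mvk, Mvd and Fdft1 of the synthesis of squalene, Insig2, a relative of Insig1, and Idi2, a paralogue of Idi1.

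Of the 28 other pathway genes, 6 had KAP1 at the promoter (21.4%, against 15.7% of all genes), 10 had H3K27ac (35.7% against 20.0%), 5 had H3K4me1 (17.9% against 11.9%) and 0 had H3K9me3 (against 5.24%). PolII was called at 4 in the control (14.3% against 13.1%) and at 6 under Kap1 KD (21.4% against 23.3%). With 1 kb to each side of the 5′ end, H3K27ac lay at 19 of the 28 (against 35.2% of all genes) and H3K4me1 at 13 (against 37.1%). PolII was in both lists at 4 of the 28, against 12.4% of all genes. These were Lbr and Hsd17b7, of the late sterol steps, Srebf1, which encodes SREBP1, and Mbtps1, a protease that cuts SREBPs. Lrp1 was 1 of 2 in the Kap1 KD list alone, against 10.9% of all genes. No pathway gene was called in the control alone, against 0.733%. PolIII was called at 1, Hsd17b7, in the control (against 0.344%) and at 0 under Kap1 KD (against 0.134%). By role, KAP1 lay at 2 of 15 synthesis genes, 1 of 5 regulators and 3 of 6 genes of uptake and trafficking, and H3K27ac at 5, 3 and 2 of them.

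The label of the cells was read against hepatocyte markers. H3K27ac lay at the promoters of 5 of 8, among them Alb, Afp, Hnf4a and Foxa2, and at 1 of 6 markers of other cell types, Col1a1, against 20.0% of all genes. H3K4me1 went the other way, at 1 of 8 hepatocyte markers (Foxa2) and at 3 of 6 others (Cd68, Col1a1 and Col3a1), against 11.9%. Apoa1, Apob and Ttr had no region of any list at the promoter. PolII was called at 1 of the 8 hepatocyte markers in the control, against 13.1% of all genes, and at 2 under Kap1 KD, against 23.3%. Cd68, a macrophage marker, had PolII in both conditions, KAP1 and H3K4me1 at its promoter window.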

How the data were processed

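The 8 ChIP-seq lists used each come from 1 library, and the 5 sequenced inputs, which have no list, were not analysed here. The study's methods name Bowtie for mapping to mm9. KAP1 and PolII peaks were called with MACS against total input, and histone mark regions with ChIP-Part. The PolIII caller and all options are not given in the sources used here. The deposited KAP1, PolII and PolIII lists carry a score per peak, and the meaning of the PolII and PolIII scores was not stated, so scores were used only to rank peaks within a list. The histone lists hold positions alone. Each polymerase list numbers its peaks along the genome, and the numbers missing between neighbours were counted.

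Genes came from GENCODE M1 (mm9), and overlap meant at least 1 bp. Positions count from 1. The share of all 22367 protein-coding genes stands beside the counts of members and of other pathway genes by list, and no test was made. Named were the members, pathway genes with a member's promoter pattern, and genes starting within 10 kb of a member. The cell type markers, genes that reach into the 10 kb without starting there, and the counts by PolII call and by role add others. The last 2 kinds were chosen after their values were seen. Some genes of these lists are counted but not reported here by name. The members and the lists of pathway genes and markers were chosen with earlier results of these data known. Sequences were read from mm9 and, for Hmgcs1, from RefSeq (GRCm38.p6). Python 3.11.15 and matplotlib 3.10.9 were used, and the overlap counts were tested on simulated data. Alternatives were other promoter widths and transcript starts, a larger overlap, stricter lists, whole gene records, 5 kb surroundings and PolII lists of equal length.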

Additional observations from a re-analysis of the deposited data

How the results depend on the processing

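The 40 results were recomputed under alternatives that gave 82 values, of which 71 kept the count or moved by less than 1.5 times and 11 moved further. Some of the 71, such as PolIII at member promoters, are counts of 0 that a larger overlap or a stricter list could not change. Above the median score of the KAP1 list, KAP1 lay at 1 member promoter, Sqle, against 7.98% of all genes. Promoters with H3K27ac fell to 2 members with an overlap of at least 100 bp (Sqle and Srebf2, against 12.8% of all genes) and to 2 among regions above the median width (Sqle and Fdps, against 11.4%). With 1 kb to each side, H3K4me1 lay at 5 members and 13 of the 28 other pathway genes, against 37.1% of all genes, and H3K27ac at 19 of the 28, against 35.2%. With an overlap of at least 100 bp, H3K4me1 lay at 0 members, against 6.45%. H3K9me3 lay within 5 kb of 2 members, Sqle and Fdps, against 15.0%. With PolII lists of equal length, 0 members had PolII under Kap1 KD alone, against 3.08% of all genes, and the cover of Srebf2 went from 1.07% to 0. Without the promoter part it was 0.641%. The cause of each was not tested beyond the construction of the alternative.

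No paired analysis was possible because each group with a list holds 1 library and no result comes from a test, and leaving a library out in turn leaves no value. The unknown depth limits every absence, and the unequal length of the PolII lists bears on the Kap1 KD call of Srebf2. The cover of Sqle under Kap1 KD stayed at 19.2% with lists of equal length, since its peaks there, ranks 1228 and 3397, are among the 5015 kept. Cutting that list can only remove peaks, so this value says nothing about why the cover is lower than in the control.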
